A study of Neotoma stephensi and Rattus norvegicus with 6 samples.

Results

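Protease inhibitors and serine proteases of keratinized epithelium were examined in the stomach of a herbivorous woodrat and of the laboratory rat. The genes were chosen by name alone: every gene whose symbol began with Serpinb, Spink, Cst, Stfa, Wfdc or with Klk and a digit, other than the cleavage stimulation factors (Cstf), together with Slpi, St14, Prss8, Tmprss4, Tmprss11a, Tmprss11d and Tmprss11e. This gave 58 of the 15481 mouse genes under which reads had been counted, namely 21 clade B serpins, 8 cystatins, 6 Kazal inhibitors, 6 whey acidic protein (WAP) inhibitors including Slpi, 11 kallikreins and 6 membrane-anchored serine proteases. RNA-seq was carried out on the fornix ventricularis, the keratinized forestomach part of the organ, from 3 wild-caught female Stephens' woodrats (Neotoma stephensi, a juniper specialist that was fed juniper) and 3 female Sprague Dawley rats (Rattus norvegicus) kept on chow. The sample labels call all animals virgin, whereas the methods of the study leave this unknown for the woodrats. No age and no other treatment is given for either species, and the juniper was offered only over transport and a night in the laboratory. Species, diet, origin and housing differed together, so their parts in any difference cannot be told apart.

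In keratinized epithelium, cells move from a basal layer to a dead, cornified surface and are then shed. Shedding depends on kallikreins, secreted serine proteases that cut the proteins joining cornified cells. LEKTI, the product of Spink5, holds kallikreins in check, and membrane-anchored proteases such as matriptase (St14) and prostasin (Prss8) help to start protease cascades in the living layers. Cystatins and stefins inhibit cysteine proteases such as cathepsins and legumain. Clade B serpins act mostly inside cells, and WAP proteins such as Slpi inhibit leukocyte proteases in secretions.

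Each animal was 1 library, with 5439642 to 7932637 uniquely assigned reads. Abundance is given as CPM, the number of reads of a gene scaled to a common library total, after TMM normalization, which sets aside genes with extreme changes, and values are always listed for woodrats 1, 2 and 3 or lab rats 1, 2 and 3 in that order. Gene lengths were not used, so CPM values compare animals and not genes. Species were compared with the quasi-likelihood test of edgeR over the 12603 genes that reached 1 CPM in 3 or more of the animals, and a gene was called at a false discovery rate (FDR) below 0.01. Fold changes are log2 values of woodrat over lab rat. In whole tissue, fewer cells of a type and less RNA per cell cannot be told apart. This mattered here because the summed abundance of 12 squamous epithelium markers was 24616, 44671 and 72139 CPM in woodrats and 90603, 82463 and 108872 CPM in lab rats. Each of the 12 had reads in every animal, but they did not move together. Of the 12, 4 had positive and 8 negative log2 fold changes. By the test, 1 was called higher and 3 lower in woodrats, beside 10.3% and 9.71% of all genes. The differentiation keratins Krt1 and Krt10 made up most of the lab rat sum, with 29415 to 33463 CPM for Krt1 in lab rats and 2093 to 10603 CPM in woodrats. Krt4, a keratin of non-cornified squamous epithelium, was higher at 4518, 10017 and 14102 CPM in woodrats and 379, 1613 and 838 CPM in lab rats (FDR 0.00627), a call that was lost without woodrat 2 or lab rat 1, 2 or 3 (FDR 0.0212, 0.0215, 0.0111 and 0.0311). The 6 smooth muscle markers in the counts ran the other way, at 118374, 56577 and 38423 CPM in woodrats against 10415, 17564 and 19166 CPM in lab rats. The part of this composition in the results below was not tested, but each result was also recomputed after scaling the libraries to the 12 squamous markers. That scaling moved the median log2 fold change of all genes from 0.03 to 1.66. It used the median of ratios over the 12 genes and did not follow their sum. Relative to library totals, its factors were 0.260, 0.557 and 1.46 in woodrats and 2.36, 2.09 and 0.959 in lab rats. Lab rat 3 had the highest sum but a lower factor than woodrat 3. The scaling is therefore not a correction for the share of epithelium.

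The tissue held abundant transcripts of these genes in both species, and most members did not differ by the test. Reads of the 58 members made up 0.456%, 0.633% and 1.00% of all counted reads in woodrats and 1.79%, 1.53% and 1.60% in lab rats. Of the 46 members that could be tested, 11 were called, beside 20% of all genes tested. Spink13, Wfdc21 and Klk7 were higher in woodrats, that is 3 of 46 members, where 10.3% of all genes were called higher. Lower in woodrats were Stfa3, Serpinb1a, Serpinb12, Slpi, Spink8, Klk6, St14 and Tmprss4, that is 8 of 46 members, where 9.71% of all genes were called lower. Of the called members, Spink13 reached the abundance filter through the woodrats alone and Spink8 through the lab rats alone. Each could only come out in the direction given, under either scaling. The median log2 fold change of the tested members was −0.29. All 3 woodrats lay above all 3 lab rats for 7 of the 46 members, beside 28.8% of all genes, and the reverse layout was seen for 16 members, beside 27.4% of all genes. With squamous marker scaling, 10 members were called higher and 4 lower in woodrats, beside 26.8% and 1.58% of all genes, so the balance of directions depended on the scaling, and 16 tested members changed sign. Under that scaling 7 of the 11 calls were kept in the direction given above (Spink13, Wfdc21, Klk7, Stfa3, Serpinb1a, Spink8 and Tmprss4), while Slpi, Serpinb12, Klk6 and St14 no longer passed.

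**Figure D1:**
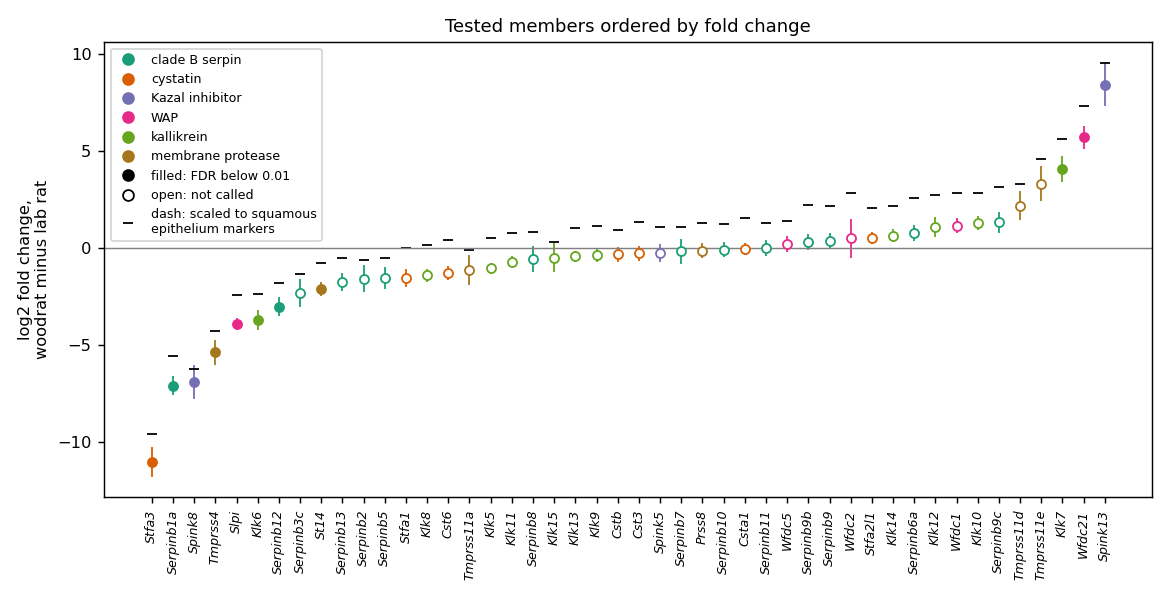
Log2 fold change of woodrat over lab rat for each tested member, coloured by class, with bars for 1 standard error, filled points for members called at an FDR below 0.01 and short dashes for the values with squamous marker scaling. The values run from −11.01 for Stfa3 to 8.43 for Spink13. Those of Spink13 and Spink8 depend on the small count that edgeR adds before taking logs, because one species had 0 or 1 read.

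The largest difference among the clade B serpins was in Serpinb1a, an inhibitor of the neutrophil proteases elastase and cathepsin G. Its abundance was 1.95, 3.47 and 1.30 CPM in woodrats and 249, 233 and 440 CPM in lab rats. The transcript was near the detection floor in every woodrat and clearly present in every lab rat, with no overlap. The log2 fold change was −7.09 (SE 0.50, FDR 0.000151). Serpinb1c, the only other gene of the Serpinb1 group in the counts, had 1 read in each species, so summing the group left the difference at −7.06 (FDR 0.000154).

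Serpinb12, a serpin of surface epithelia that inhibits trypsin-like proteases, was the other serpin called. It stood at 64.4, 133 and 262 CPM in woodrats and 1312, 1247 and 1162 CPM in lab rats. The lab rats were close to each other, whereas the woodrats spread widely but all lay below them. The log2 fold change was −3.02 (SE 0.50, FDR 0.00288). This call was lost without woodrat 2 (FDR 0.016), without lab rat 3 (FDR 0.0122) and with squamous marker scaling (FDR 0.0913).

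Serpinb3c, a squamous cell carcinoma antigen serpin, Serpinb5 (maspin), a serpin that does not inhibit proteases, and Serpinb13, an inhibitor of cathepsins L and K, were also lower in every woodrat than in any lab rat, but none of the 3 passed the test. Serpinb3c had 57.0, 250 and 632 CPM in woodrats and 1687, 1732 and 1241 CPM in lab rats (log2 fold change −2.31, SE 0.72, FDR 0.0336). Serpinb5 had 86.4, 218 and 471 CPM in woodrats and 656, 666 and 927 CPM in lab rats (log2 fold change −1.54, SE 0.55, FDR 0.0524). For all 3 genes the woodrats were below every lab rat, but woodrat 1 and woodrat 3 differed by several-fold. Serpinb13 stood at 11.1, 27.9 and 46.3 CPM in woodrats and 105, 95.7 and 85.6 CPM in lab rats (log2 fold change −1.74, SE 0.45, FDR 0.016). All 3 were called with DESeq2 in place of edgeR, and also without woodrat 3 (FDR 0.00504 for Serpinb3c, 0.00599 for Serpinb5 and 0.00345 for Serpinb13).

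The remaining serpins lay close together or overlapped between species. Serpinb2, plasminogen activator inhibitor 2, ranged from 8.39 to 76.1 CPM in woodrats and from 66.8 to 130 CPM in lab rats (FDR 0.0986), and it too was called lower without woodrat 3 (FDR 0.00232). Serpinb10 (bomapin) was at 59.3, 178 and 172 CPM in woodrats and 110, 155 and 164 CPM in lab rats (FDR 0.911). Serpinb6a, an inhibitor of trypsin-like proteases and cathepsin G, was at 113, 94.3 and 43.3 CPM in woodrats and 32.9, 39.7 and 71.6 CPM in lab rats (FDR 0.157). In Serpinb6a the order of the woodrats was the reverse of that in Serpinb3c, Serpinb5 and Serpinb12. Serpinb7 (megsin), Serpinb8, Serpinb9, Serpinb9b, Serpinb9c and Serpinb11 also did not pass, with FDR values between 0.0805 and 0.973. Of the 14 serpins tested, 2 were therefore lower in woodrats and 0 were higher at an FDR below 0.01. Of all genes tested, 9.71% were called lower and 10.3% higher. Summing the Serpinb6 and the Serpinb9 genes gave log2 fold changes of 0.83 (FDR 0.137) and 0.49 (FDR 0.290).

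**Figure D2:**
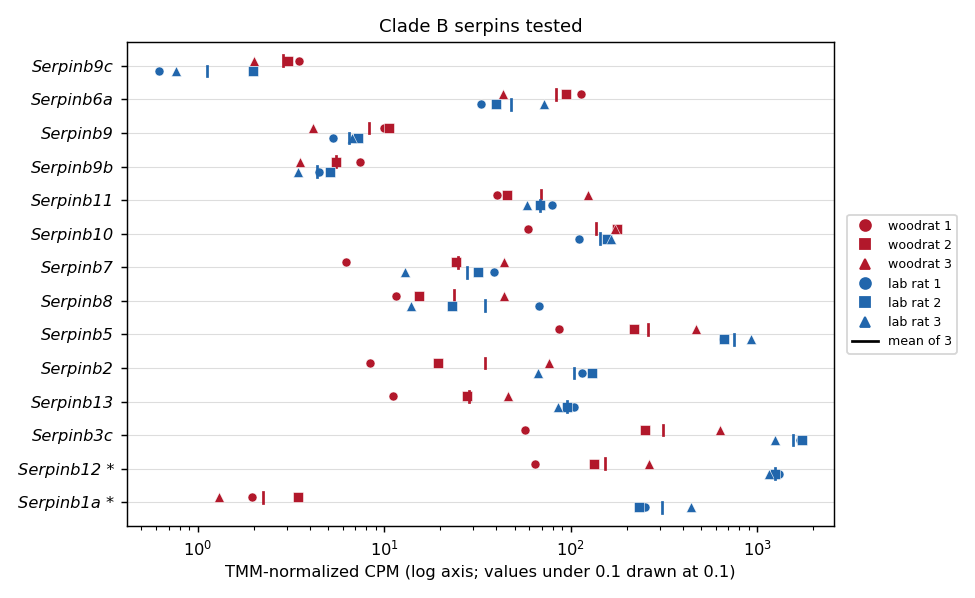
CPM on a log axis of the tested clade B serpins in each woodrat and lab rat, with 1 point per animal, a short line for the mean of 3 and an asterisk for called genes. Serpinb1a and Serpinb12 separate with the woodrats far below, Serpinb3c, Serpinb5 and Serpinb13 separate with a wide woodrat spread, and Serpinb10 and Serpinb11 overlap.

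Among the cystatins, the stefin A gene Stfa3 gave the lowest log2 fold change of all tested members. Stefins A are small cytosolic inhibitors of cathepsins that occur in several near-identical copies in rodents. Stfa3 had 12, 4 and 20 reads (2.34, 0.555 and 2.37 CPM) in woodrats and 26406, 13522 and 27771 reads (3274, 2234 and 5343 CPM) in lab rats. Its reads were plentiful in every lab rat and nearly absent from every woodrat. The log2 fold change was −11.01 (SE 0.77, FDR 0.000151). Stfa3 is nevertheless absent from the genes that the paper lists as most overexpressed in lab rats. The reason for this was not tested.

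None of the other stefin A genes passed the test. Csta1 was at 522, 489 and 498 CPM in woodrats and 445, 383 and 725 CPM in lab rats (log2 fold change −0.04, SE 0.31, FDR 0.930). The paper, by contrast, describes higher Csta1 expression in the woodrat foregut. Stfa2l1 was at 472, 524 and 607 CPM in woodrats and 381, 247 and 483 CPM in lab rats (log2 fold change 0.53, SE 0.31, FDR 0.209). Stfa1 was at 132, 48.7 and 167 CPM in woodrats and 318, 255 and 432 CPM in lab rats (log2 fold change −1.53, SE 0.45, FDR 0.0256). Much of the stefin A reads went to Stfa3 in lab rats only. Stfa3 took 0.208%, 0.0522% and 0.186% of the reads of these 4 genes in woodrats and 74.1%, 71.6% and 76.5% in lab rats, while Csta1 took 46.3%, 46.0% and 39.1% in woodrats and 10.1%, 12.3% and 10.4% in lab rats. With Stfa3 left out of the total, the shares of Csta1 overlapped, at 46.4%, 46.1% and 39.1% in woodrats and 38.8%, 43.3% and 44.2% in lab rats. Stfa1 then took 11.7%, 4.58% and 13.1% in woodrats and 27.8%, 28.9% and 26.3% in lab rats, without overlap.

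Reads were assigned to mouse transcripts, and copies of a gene family in rat or woodrat need not match mouse copies one to one, so the division of reads among stefin A genes is uncertain and the summed family is the safer value. Some duplicated genes of these families, among them Serpinb1b, Serpinb3b2 and Stfa2, had been removed by the authors and are not analysed here. The summed stefin A genes stood at 1128, 1062 and 1275 CPM in woodrats and 4418, 3119 and 6983 CPM in lab rats. No lab rat fell into the woodrat range, with a log2 fold change of −2.07 (SE 0.42, FDR 0.00592). This call was kept without lab rat 3 but lost without woodrat 1, 2 or 3 (FDR 0.0171, 0.0373 and 0.0118) or lab rat 1 or 2 (FDR 0.0178 and 0.0107), and it was lost with squamous marker scaling (log2 fold change −0.54, FDR 0.651).

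Of the other cystatins, Cst6, Cst3 and Cstb had many reads in both species, and Cst9 was too low to be tested. Cst6, cystatin M/E, an inhibitor of legumain and cathepsin L that is needed for normal cornification, was at 359, 260 and 279 CPM in woodrats and 708, 455 and 1004 CPM in lab rats. The groups did not overlap, but the log2 fold change of −1.27 (SE 0.35, FDR 0.0211) missed the threshold. The secreted cystatin C gene Cst3 was at 463, 378 and 336 CPM in woodrats and 345, 333 and 739 CPM in lab rats (FDR 0.588). The cytosolic stefin B gene Cstb was at 83.3, 148 and 219 CPM in woodrats and 150, 153 and 257 CPM in lab rats (FDR 0.549). Under squamous marker scaling the signs of Cst6, Cst3, Cstb, Csta1 and Stfa1 turned positive.

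LEKTI transcripts were plentiful in both species. Spink5 stood at 795, 1181 and 2487 CPM in woodrats and 2351, 1669 and 1332 CPM in lab rats. The ranges overlapped over most of their length, and the log2 fold change was −0.26 (SE 0.47, FDR 0.686). The sign turned positive without woodrat 1 and with squamous marker scaling.

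The other Kazal inhibitors were low and divided by species. Spink13 had 15, 72 and 53 reads in woodrats (2.93, 9.98 and 6.27 CPM) and 0 reads in each lab rat. Against 3 reads per lab rat library, the level that a count of 0 allows, its woodrat mean was at least 13.3-fold higher (FDR 0.00238, and 0.0109 without lab rat 3). Spink8 had 0, 0 and 1 read in woodrats and 27, 61 and 53 reads in lab rats (3.35, 10.1 and 10.2 CPM). For Spink8 the lab rat to woodrat ratio of summed reads per normalized library was 152, with a 95% counting interval from 26.8 to 6036 that covers counting error only (FDR 0.0011). Spink13 passed the abundance filter through the woodrats alone and Spink8 through the lab rats alone. Spink7 had 7, 50 and 5 reads in woodrats and 0 in each lab rat, and was too low to be tested. Its woodrat mean was at least 6.15-fold higher, but woodrat 3, at 0.592 CPM, was near the level of 3 reads. Every gene listed had woodrat reads, while 809 genes had none in lab rats, so a gene read only in lab rats could not appear here.

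Slpi, secretory leukocyte protease inhibitor, was the WAP gene that fell in woodrats. It stood at 41.0, 45.2 and 60.2 CPM in woodrats and 765, 625 and 834 CPM in lab rats. Both groups were tight and far apart, with a 15.2-fold difference (log2 fold change −3.92, SE 0.31, FDR 0.000216). The call held in all 6 fits that left out 1 animal but not with squamous marker scaling (FDR 0.0225).

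Wfdc21, a small secreted protein with a single WAP domain, went the other way. It had 43.9, 29.9 and 32.1 CPM in woodrats and 0.124, 0.661 and 1.35 CPM in lab rats, the latter from 1, 4 and 7 reads. Every woodrat was far above every lab rat, with a log2 fold change of 5.72 (SE 0.58, FDR 0.000544). Wfdc1 was at 146, 115 and 85.1 CPM in woodrats and 30.1, 44.6 and 78.9 CPM in lab rats (log2 fold change 1.17, SE 0.38, FDR 0.0376), without overlap. The woodrat with the highest smooth muscle marker sum also had the highest Wfdc1 value, but a link between them was not tested. Wfdc2 was low, at 5.66, 0.416 and 0.237 CPM in woodrats and 1.24, 1.49 and 1.35 CPM in lab rats (FDR 0.715), and its log2 fold change of 0.51 became −2.02 without woodrat 1. Wfdc5 overlapped between species, at 27.5, 39.4 and 77.7 CPM in woodrats and 36.3, 32.7 and 56.4 CPM in lab rats (FDR 0.703).

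**Figure D3:**
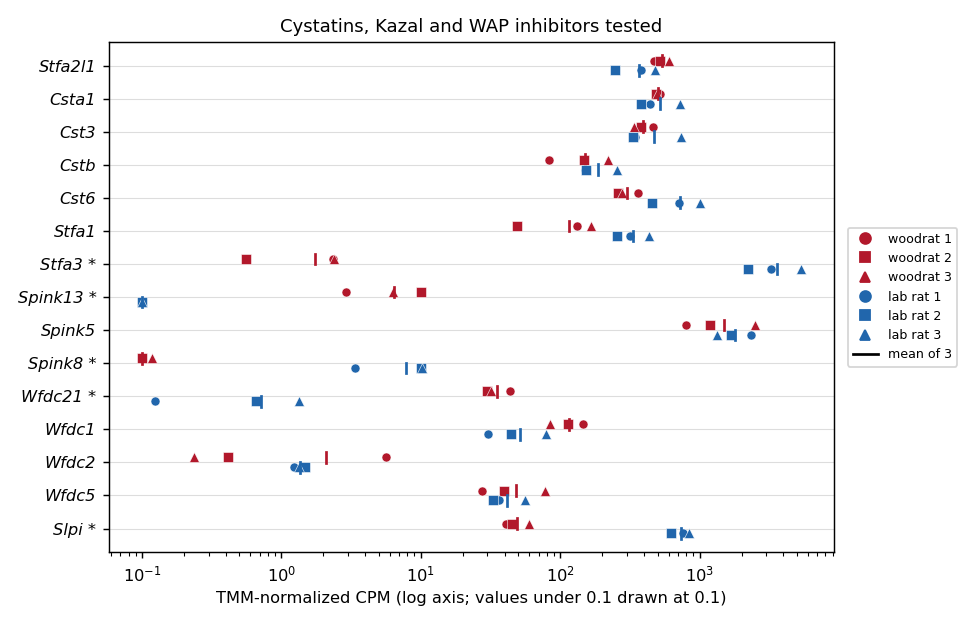
CPM on a log axis of cystatin, Kazal and WAP genes in each animal, with 1 point per animal, a short line for the mean of 3, an asterisk for called genes and values under 0.1 CPM drawn at 0.1. Stfa3, Slpi and Spink8 lie lower in all 3 woodrats, Wfdc21 and Spink13 lie higher, and Csta1, Cst3 and Spink5 overlap.

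Serpinb1a, Slpi and stefin A genes are also expressed by leukocytes, and several leukocyte markers were lower in woodrats. Of the 20 markers listed, 15 were in the counts and 9 could be tested. Of these, 6 were lower in woodrats and 0 higher, where 9.71% of all genes were called lower, and 5 of the 6 calls were lost with squamous marker scaling. The sum of the list was 21.1, 34.5 and 33.4 CPM in woodrats and 119, 80.0 and 77.3 CPM in lab rats. The macrophage and granulocyte genes Csf1r (log2 fold change −3.02, SE 0.49, FDR 0.00265) and Tyrobp (log2 fold change −3.01, SE 0.57, FDR 0.00457) were among them. Csf1r was not called without woodrat 2 or lab rat 1 (FDR 0.0128 and 0.0105), nor Tyrobp without woodrat 2, lab rat 1 or lab rat 3 (FDR 0.0212, 0.0154 and 0.0203). The other genes called lower, Itgb2, Ptprc, Il1b and Itgam, were under 1 CPM in every woodrat. They passed the abundance filter through the lab rats alone and could only come out lower in woodrats. Other markers of the list did not go this way. Lcn2, a granule protein also made by epithelia, was at 3.32, 9.71 and 5.80 CPM in woodrats and 1.86, 1.16 and 0.962 CPM in lab rats (FDR 0.011), and the macrophage marker Cd68 overlapped between species (FDR 0.899). S100a9 had 45, 6 and 7 reads in woodrats and 5, 2 and 2 in lab rats. The neutrophil granule genes Ltf and Camp had at most 1 read in any animal. The part of leukocytes in the differences was not tested beyond these values.

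Among the 11 kallikreins, 1 was higher and 1 lower in woodrats, beside 10.3% and 9.71% of all genes tested. Klk7, the chymotrypsin-like kallikrein that cuts corneodesmosin and desmocollin during shedding, was at 293, 397 and 799 CPM in woodrats and 38.2, 41.6 and 7.70 CPM in lab rats. The lowest woodrat lay well above the highest lab rat. The difference was 17.0-fold (log2 fold change 4.08, SE 0.67, FDR 0.00274), and it was called in all 6 fits that left out 1 animal and with squamous marker scaling.

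Klk6, a trypsin-like kallikrein, was at 8.59, 6.24 and 23.5 CPM in woodrats and 179, 214 and 117 CPM in lab rats. The species were again fully apart, in the opposite direction, with a log2 fold change of −3.72 (SE 0.53, FDR 0.00158). With squamous marker scaling its FDR was 0.0141.

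Klk5, the trypsin-like kallikrein that activates the precursor of Klk7, did not reach the threshold. It was at 373, 388 and 544 CPM in woodrats and 976, 836 and 876 CPM in lab rats (log2 fold change −1.04, SE 0.29, FDR 0.021). Klk8, a trypsin-like kallikrein also known as neuropsin, was at 417, 460 and 394 CPM in woodrats and 861, 882 and 1601 CPM in lab rats (log2 fold change −1.40, SE 0.34, FDR 0.0129). Both were lower in every woodrat than in any lab rat, both were called by DESeq2, and both changed sign with squamous marker scaling. Klk10 was at 115, 173 and 221 CPM in woodrats and 59.0, 102 and 46.0 CPM in lab rats (log2 fold change 1.29, SE 0.37, FDR 0.0238), without overlap. Klk13 was at 164, 211 and 258 CPM in woodrats and 279, 227 and 335 CPM in lab rats (FDR 0.268), and Klk11 at 29.5, 60.6 and 54.2 CPM in woodrats and 79.6, 72.4 and 82.2 CPM in lab rats (FDR 0.0901). Klk11 was lower in every woodrat than in any lab rat, whereas Klk13 overlapped between species, as did the kallikreins listed next. Klk9, Klk12, Klk14 and Klk15 had FDR values between 0.107 and 0.631. Klk14, another target of LEKTI, was present at 22.6, 34.8 and 43.8 CPM in woodrats and 23.8, 24.9 and 15.6 CPM in lab rats.

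Shares within a library do not depend on how the libraries were scaled, and for kallikreins they separated the species as well. Klk7 took 20.0%, 22.0% and 33.0% of kallikrein reads in woodrats and 1.47%, 1.67% and 0.246% in lab rats. Klk8 took 28.5%, 25.5% and 16.3% in woodrats and 33.2%, 35.5% and 51.1% in lab rats, and Klk5 took 25.5%, 21.5% and 22.4% in woodrats and 37.6%, 33.6% and 27.9% in lab rats. Klk7 thus took a much larger share in every woodrat than in any lab rat. The smaller woodrat shares of Klk8 and Klk5 went with it, since without Klk7 in the total Klk5 took 31.9%, 27.6% and 33.5% in woodrats and 38.2%, 34.2% and 28.0% in lab rats, and Klk8 overlapped as well. Klk6 took 0.587%, 0.346% and 0.972% in woodrats and 6.89%, 8.61% and 3.72% in lab rats.

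The ratio of LEKTI reads to those of its targets separated the species for Klk7 but not for Klk5. There were 2.71, 2.97 and 3.11 reads of Spink5 for each read of Klk7 in woodrats, and 61.6, 40.1 and 173 in lab rats. For each read of Klk5, by contrast, there were 2.13, 3.04 and 4.57 reads of Spink5 in woodrats and 2.41, 2.00 and 1.52 in lab rats, which overlapped. The ratio of Klk7 to Klk5 reads was 0.785, 1.02 and 1.47 in woodrats and 0.0391, 0.0498 and 0.00879 in lab rats. These ratios of reads are not corrected for transcript length and compare animals only. They were not tested.

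**Figure D4:**
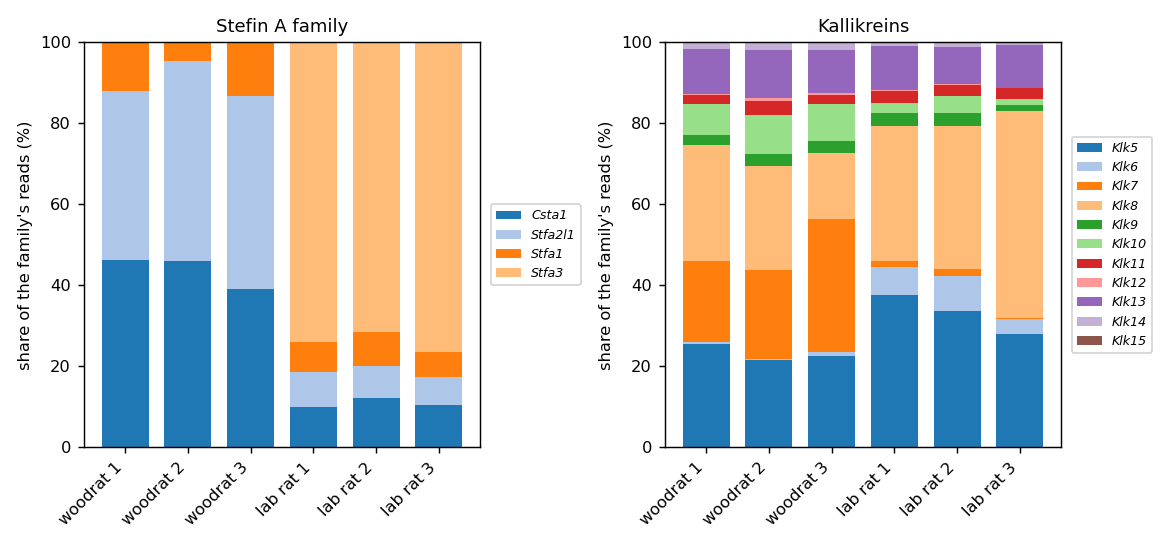
Percent of the kallikrein reads and of the stefin A reads of each library taken by single genes, with 1 stacked bar per animal that starts at 0. Klk7 takes at least 20.0% of kallikrein reads in each woodrat and at most 1.67% in each lab rat, and Stfa3 takes at least 71.6% of stefin A reads in each lab rat and at most 0.208% in each woodrat.

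Of the 6 membrane-anchored proteases, 2 were lower in woodrats, beside 9.71% of all genes tested. Tmprss4, a membrane serine protease of epithelia, was at 0.39, 6.10 and 4.73 CPM in woodrats and 148, 150 and 188 CPM in lab rats. Woodrat 1 had only 2 reads, and all woodrats were far below the narrow lab rat range. The log2 fold change was −5.38 (SE 0.66, FDR 0.000965), and the call held in all 6 fits that left out 1 animal and with squamous marker scaling.

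St14, matriptase, was at 18.7, 32.3 and 46.4 CPM in woodrats and 126, 119 and 170 CPM in lab rats (log2 fold change −2.09, SE 0.35, FDR 0.00303). The groups did not overlap, but the call was lost without woodrat 2 (FDR 0.0153), without lab rat 3 (FDR 0.0135) and with squamous marker scaling (FDR 0.402). Prss8, the gene of its partner prostasin, overlapped between species. It was at 20.9, 40.5 and 57.4 CPM in woodrats and 60.2, 34.9 and 34.2 CPM in lab rats (log2 fold change −0.12, SE 0.39, FDR 0.828). There were 0.897, 0.798 and 0.808 reads of St14 for each read of Prss8 in woodrats and 2.10, 3.42 and 4.98 in lab rats. Spint1, which encodes the matriptase inhibitor HAI-1, was at 32.2, 107 and 124 CPM in woodrats and 62.9, 50.6 and 56.2 CPM in lab rats (FDR 0.275), or 1.72, 3.32 and 2.66 reads for each St14 read in woodrats and 0.498, 0.424 and 0.330 in lab rats. The related gene Spint2 had a negative log2 fold change of −0.92 (SE 0.31, FDR 0.0449). It was at 57.4, 103 and 109 CPM in woodrats and 149, 146 and 216 CPM in lab rats, without overlap.

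The airway-type proteases of the Tmprss11 group were low, with a wide spread among woodrats. Tmprss11a was at 2.34, 7.63 and 28.8 CPM in woodrats and 36.9, 35.5 and 11.7 CPM in lab rats (FDR 0.282). Tmprss11d was at 2.15, 3.19 and 13.4 CPM in woodrats and 1.61, 1.65 and 0.77 CPM in lab rats (log2 fold change 2.20, SE 0.73, FDR 0.0423). Tmprss11e was at 1.37, 12.2 and 18.1 CPM in woodrats and 1.49, 1.32 and 0.192 CPM in lab rats (log2 fold change 3.33, SE 0.90, FDR 0.02). Neither Tmprss11d nor Tmprss11e passed the test, although both were called higher with squamous marker scaling and Tmprss11e also with DESeq2 and without woodrat 1 (FDR 0.00283).

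**Figure D5:**
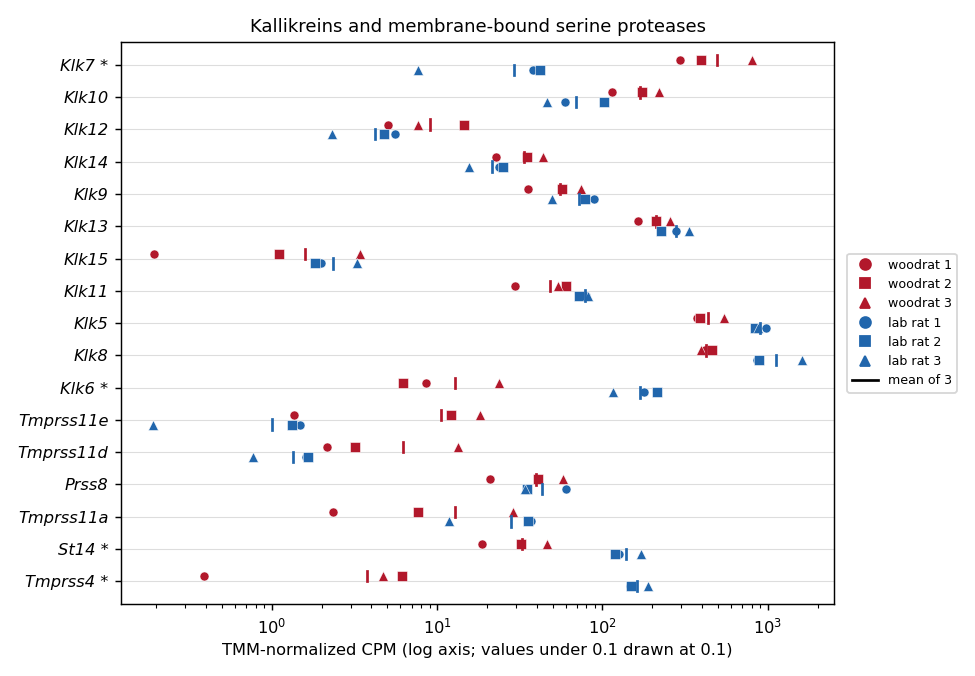
CPM on a log axis of the kallikreins and membrane-anchored proteases in each animal, with 1 point per animal, a short line for the mean of 3 and an asterisk for called genes. Klk7 is higher in all 3 woodrats, Klk6, St14 and Tmprss4 are lower in all 3, and Klk13 and Prss8 overlap.

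The spread between animals of one species was wide for these genes, above all in woodrats. Over the 34 members with a woodrat mean of at least 10 CPM, the median SD of log2 abundance between woodrats was 0.73, against 0.31 for all genes at that level. In lab rats the values were 0.45 for 35 members and 0.32 for all genes. Woodrat 3 was the highest woodrat for 29 of the 46 tested members (63.0%), beside 37.9% of all genes, and woodrat 1 was the lowest for 31 (67.4%), beside 39.1% of all genes. The same order held for the sum of the squamous markers but not for each of them, as Ivl was highest in woodrat 1 and Krtdap in woodrat 2. Cdh1, the E-cadherin of epithelial cells, was at 6.83, 48.4 and 157 CPM in woodrats. The levels in woodrat 3 and woodrat 1 differed 11.1-fold for Serpinb3c and by less than the range of the lab rats for Csta1. The part of this order among woodrats in the tests was not tested beyond the fits that left out 1 animal.

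Substrates and partners of shedding were looked at as 16 further genes. Of these, 2 were higher and 1 lower in woodrats, beside 10.3% and 9.71% of all genes. The filaggrin genes Flg and Flg2, which encode keratin-binding proteins that are broken down in the cornified layer, were higher. Flg was at 8.0, 24.8 and 171 CPM in woodrats and 2.11, 0.661 and 0.77 CPM in lab rats (log2 fold change 5.76, SE 1.18, FDR 0.00648), and it was not called without woodrat 2 (FDR 0.0108) or without lab rat 1, 2 or 3 (FDR 0.0167, 0.026 and 0.0428). Flg2 (FDR 0.00289) was likewise lost without lab rat 1, 2 or 3 (FDR 0.014, 0.0132 and 0.0139). Flg2 had 18, 12 and 44 reads in woodrats and 0, 0 and 1 in lab rats. It passed the abundance filter through the woodrats alone. Ivl (involucrin), a cornified envelope scaffold, was lower, at 11.3, 8.60 and 7.81 CPM in woodrats and 382, 282 and 195 CPM in lab rats (log2 fold change −4.96, SE 0.36, FDR 0.000172). Cdsn, corneodesmosin, the substrate cut by Klk7 and Klk5, was at 620, 653 and 1395 CPM in woodrats and 338, 221 and 145 CPM in lab rats. All woodrats lay above all lab rats for Cdsn, but the log2 fold change of 1.92 (SE 0.45, FDR 0.011) missed the threshold, which it passed with DESeq2, without a filter, with the method of edgeR 4 and with squamous marker scaling. Cdsn was not called in any fit that left out 1 animal, where its FDR reached 0.0432. Nor was it called with the replicate block (FDR 0.0498) or with total counts (FDR 0.0277). The aspartic protease Asprv1, which processes filaggrin, was at 2270, 2820 and 4890 CPM in woodrats and 3377, 2641 and 2584 CPM in lab rats (FDR 0.702). The desmosomal gene Dsg1b was at 41.6, 167 and 736 CPM in woodrats and 1228, 1216 and 630 CPM in lab rats (FDR 0.142). It was called lower without woodrat 3 (FDR 0.00543). The desmocollin gene Dsc1 overlapped between species (FDR 0.818). Of the 16 genes, 7 had positive and 9 negative log2 fold changes.

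The cathepsins and legumain, most of which are cystatin targets, gave 0 genes higher and 3 lower in woodrats among the 13 tested. Over all genes tested, 10.3% were called higher and 9.71% lower. Ctsl, cathepsin L, was at 59.7, 71.7 and 106 CPM in woodrats and 476, 279 and 251 CPM in lab rats (log2 fold change −2.08, SE 0.35, FDR 0.00308). It was not called without woodrat 2 (FDR 0.0167), without lab rat 1 (FDR 0.0106) or with squamous marker scaling (FDR 0.607). The leukocyte cathepsins Ctss and Ctsw were also lower (FDR 0.00174 and 0.00479), beside the lower leukocyte markers given above, and Ctsw was lost without woodrat 2 or 3 or lab rat 1 or 3 (FDR 0.0179, 0.0116, 0.0158 and 0.0191). Ctsw had 2, 0 and 1 reads in woodrats and 25, 10 and 23 in lab rats. It passed the abundance filter through the lab rats alone. Legumain (Lgmn), a target of Cst6, was at 82.9, 70.3 and 65.3 CPM in woodrats and 40.8, 41.6 and 49.3 CPM in lab rats (FDR 0.0302). There were 4.33, 3.70 and 4.28 reads of Cst6 for each Lgmn read in woodrats and 17.4, 10.9 and 20.4 in lab rats. For each read of Ctsl, by contrast, there were 6.02, 3.63 and 2.64 reads of Cst6 in woodrats. The lab rat values of 1.49, 1.63 and 4.01 overlapped these. Neither ratio was tested.

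Inhibitors outside the name rule changed in both directions, with 3 of 15 tested lower in woodrats, beside 9.71% of all genes. Serpina9, a clade A serpin known from germinal centre B cells, was at 115, 84.0 and 251 CPM in woodrats and 0.372, 0.496 and 0.962 CPM in lab rats (log2 fold change 7.97, SE 0.61, FDR 0.000211). Lower in woodrats were Serpinf1, a secreted clade F serpin without inhibitory activity (log2 fold change −3.09, FDR 0.000491), A2m, the broad inhibitor alpha-2-macroglobulin (log2 fold change −3.70, FDR 0.00114), and Pebp1 (log2 fold change −2.73, FDR 0.000499). These 3 were not called with squamous marker scaling (FDR 0.0884, 0.0391 and 0.225). Serpina12 (vaspin), a clade A serpin that inhibits Klk7, was at 544, 374 and 583 CPM in woodrats and 430, 325 and 362 CPM in lab rats (log2 fold change 0.43, SE 0.28, FDR 0.258). The ranges overlapped.

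Other epithelial serine proteases moved in both directions, with 2 of 10 tested higher and 3 lower in woodrats. Over all genes tested, 10.3% were called higher and 9.71% lower. Prss23 was at 156, 121 and 104 CPM in woodrats and 25.3, 34.9 and 35.2 CPM in lab rats (log2 fold change 2.00, SE 0.27, FDR 0.00127), and Prss41 was higher at a low level (FDR 0.00191, and 0.0104 without lab rat 3). Prss41 had 13, 17 and 43 reads in woodrats and 1, 0 and 0 in lab rats. It passed the abundance filter through the woodrats alone. The 3 genes that fell were hepsin and a pair of transmembrane proteases. Hpn (hepsin) was at 1.37, 0.832 and 0.71 CPM in woodrats and 13.1, 8.26 and 14.8 CPM in lab rats (log2 fold change −3.66, SE 0.44, FDR 0.000887, and 0.0484 with squamous marker scaling). Tmprss2 (FDR 0.00369) was lost without woodrat 2 or lab rat 1 or 2 (FDR 0.0147, 0.0123 and 0.0127), and Tmprss11b (FDR 0.00465) without lab rat 1, 2 or 3 (FDR 0.0148, 0.0173 and 0.0143) and with squamous marker scaling (FDR 0.0272). Tmprss2 had 0, 0 and 3 reads in woodrats and 54, 50 and 11 in lab rats. It passed the abundance filter through the lab rats alone. Tmprss13 spread widely among woodrats, at 10.9, 28.6 and 90.6 CPM, against 134, 116 and 72.5 CPM in lab rats (FDR 0.138), and was called lower without woodrat 3 (FDR 0.00469). Of 9 leukocyte granule genes in the counts, most but not all of them serine proteases, 2 could be tested, and 0 were called in either direction.

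The 12 members too low to be tested had at most 62 reads over all 6 animals. They were Spink6, Spink7, Spink10, Cst9, Wfdc3, Serpinb1c, Serpinb6b, Serpinb6c, Serpinb6d, Serpinb6e, Serpinb9e and Serpinb9g. Cst9 had 5, 15 and 4 reads in woodrats and 0 in each lab rat. Its woodrat mean was at least 2.44-fold higher, but woodrat 3, at 0.473 CPM, was near the level of 3 reads. Serpinb6e had 8, 4 and 21 reads in woodrats and 1, 0 and 1 in lab rats. The ratio was 15.3 with a 95% counting interval from 3.92 to 132, which leaves out the spread between animals. Wfdc3 had 0, 0 and 1 read in woodrats and 5, 3 and 1 in lab rats. The lab rat to woodrat ratio was 9.69 with such an interval from 1.34 to 425. None of the 12 could be tested across animals at this depth, where 3 reads correspond to 0.355 to 0.585 CPM. Markers of the glandular stomach summed to 7.31 to 13.5 CPM and those of salivary gland and pancreas to 0.585 to 1.54 CPM over the 6 animals. Within the first list, Muc5ac, a mucin of gastric surface cells, had 17, 12 and 33 reads in woodrats and 0 in each lab rat (FDR 0.00305), Gast had 3, 2 and 3 reads in woodrats and 0 in each lab rat, and Atp4a gave most of the sum in lab rats. Muc5ac passed the abundance filter through the woodrats alone.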

How the data were processed

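Strand-specific read pairs were cleaned with Trimmomatic and joined with FLASH by the authors, who aligned them to mouse coding transcripts (GENCODE M7) with cross_match. They left out genes that drew many ambiguous reads. The authors deposited, per animal, the raw count of uniquely assigned reads of every remaining mouse gene. The labels name the build mm9, and no tool versions are given in the sources used here. Rat and woodrat reads can align differently to mouse transcripts. From substitution rates per read, the paper reports no global mapping bias between the species. For smooth muscle genes it also reports a close correlation with counts from within-species alignment. The effect on the single genes examined here was not tested.

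Counts were joined by gene identifier and analysed in R 4.3.3 with edgeR 4.0.16, using TMM factors, the quasi-likelihood F-test as implemented before version 4, a model with species alone, edgeR's default prior count and Benjamini-Hochberg adjustment over 12603 genes. Each standard error (SE) was derived as the absolute log2 fold change over the root of its F statistic. The 3 libraries per species are separate animals, and no 2 differed by sampling noise alone (chi-square per degree of freedom 10.1 to 121). Each animal's depth sets a floor of 3 counts, and ratios of low counts have exact (Clopper-Pearson) intervals, both for counting error only. Near-identical stefin A, Serpinb1, Serpinb3, Serpinb6 and Serpinb9 genes were also summed before fitting, but Serpinb3c was the only Serpinb3 gene counted.

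The members, lists and tests were chosen with earlier results of these data known. Members named are those called, those with a species mean of at least 100 CPM, those listed singly in the rule and those known from desquamation. Related genes are named if called or at 100 CPM, other members are named to account for all of them, and Lgmn, Spint1, Ltf, Camp, S100a9, Lcn2, Cd68, Atp4a and Gast were named for their role after their values were seen. Alternatives were a filter at 5 CPM, no filter, DESeq2 1.42.0 and its size factors, total counts, the method of edgeR 4, a replicate block, glmTreat, an FDR below 0.05 and each animal left out. Scaling to squamous markers was chosen after seeing the data. The fit was tested on simulated counts. A result of 1 related gene is not reported here. No reference sequence was used here, so positions and sequences are not given.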

Additional observations from a re-analysis of the deposited data

How the results depend on the processing

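With 3 animals per species, calls near the threshold moved with the settings. The 11 calls (3 higher, 8 lower in woodrats) became 20 (5 higher, 15 lower) with DESeq2 and 21 (7 higher, 14 lower) at an FDR below 0.05, and squamous marker scaling gave 10 higher and 4 lower. Leaving out 1 animal gave 8 to 15 calls, 2 to 4 higher and 6 to 12 lower. Of the 5 summed families, 2 were called, against 1 with the replicate block, 1 with glmTreat and 1 to 2 with an animal left out. For all genes called, 2516 became 3916 with DESeq2, 833 with glmTreat, 5026 at an FDR below 0.05 and 899 to 2626 with an animal left out.

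Replicate numbers did not pair the animals (correlations −0.29, −0.09 and −0.28 for the same number). With the replicate block, all genes called numbered 716 and 1 member higher in woodrats were called, Spink13 (FDR 0.0115), Serpinb12 (FDR 0.0115) and Klk7 (FDR 0.0184) were lost, and Wfdc2 (−0.30), Csta1 (0.017) and Serpinb11 (−0.18) changed sign.

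Sign changes concerned genes that were not called. With squamous marker scaling, log2 fold changes turned positive for Spink5 (1.09), Serpinb10 (1.24), Cst3 (1.36), Cst6 (0.41), Csta1 (1.55), Cstb (0.94), Stfa1 (0.0076), Klk5 (0.52), Klk8 (0.18), Klk11 (0.77), Klk13 (1.07), Klk9 (1.15), Klk15 (0.31), Serpinb7 (1.08), Serpinb8 (0.83), Prss8 (1.29), Spint2 (0.47), Ctsd (0.82), Ctsb (0.80) and Casp14 (0.57), where the median of all genes moved to 1.66. With 1 animal left out, the range crossed 0 for Spink5 (−0.85 to 0.040), Wfdc2 (−2.02 to 1.09), Wfdc5 (−0.32 to 0.49), Serpinb7 (−0.86 to 0.29), Serpinb8 (−1.37 to 0.36), Serpinb10 (−0.35 to 0.29), Serpinb11 (−0.68 to 0.29), Cst3 (−0.47 to 0.21), Csta1 (−0.22 to 0.28), Prss8 (−0.49 to 0.20) and Asprv1 (−0.17 to 0.43). Of the members tested, only Serpinb11 (0.02) changed sign with DESeq2's size factors (−0.0186) or DESeq2 (−0.0194), and none did with a filter at 5 CPM, total counts or the method of edgeR 4. The causes were not tested.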
